A study of Mus musculus with 18 samples.

Results

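The EGF-family ligands were followed through single cells of the adult mouse stomach. The family was taken as 9 genes by name, *Tgfa*, *Btc*, *Areg*, *Hbegf*, *Egf*, *Ereg*, *Epgn*, *Nrg1* and *Nrg4*, of the 31201 gene names listed over both datasets. Of these, 8 were listed with UMI counts, and *Nrg1* was not analysed here. The members were chosen by name, but with earlier results of these data known. Each ligand was described in every cluster of cells as the authors numbered them, 20 clusters of corpus cells and 15 clusters of corpus and antrum cells, rather than in pooled cell types.

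EGF-family ligands are made as membrane-anchored precursors, from which proteases such as ADAM10 and ADAM17 release the soluble growth factor. TGF-alpha, amphiregulin and EGF bind the receptor EGFR, and betacellulin, HB-EGF and epiregulin bind EGFR and ERBB4. Of the neuregulins, NRG1 binds ERBB3 and ERBB4, and NRG4 binds ERBB4. In the stomach, surface pit cells are known sources of TGF-alpha, and EGFR signals are known to act on growth and repair of the gastric epithelium. For parietal cells the paper cites an early report of TGF-alpha transcripts in enriched fractions, but found EGF ligands there only rarely.

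The cells came from male wild-type C57BL/6J mice of 10 weeks, all untreated and carrying no transgene. Dataset 1 held gastric units of corpus and antrum from 2 pools, called tube 1 and tube 2, and dataset 2 held gastric units of the corpus from 2 further pools, called K and T. Each pool joined the cells of 3 mice, so a value belongs to a pool and not to an animal, and the 2 pools of a dataset were the replicates (n = 2). Per the paper, different operators prepared the 2 replicates of each dataset, so pool and operator cannot be told apart. Dead cells were sorted out by a viability dye, ToPro3 in dataset 2 and, in dataset 1, ToPro3 per the labels but propidium iodide per the methods. The DNA dye Hoechst33342 was used as well in dataset 2. Cells went into 384-well plates and were read by Quartz-Seq2, in which each captured mRNA molecule is counted once through a unique molecular identifier (UMI).

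The authors kept 491 cells with 19906729 UMIs in dataset 1 (6 plates) and 3993 cells with 139611402 UMIs in dataset 2 (12 plates), with median depths of 30168 to 44893 UMIs per cell in the 4 pools. No cell type was labelled by the submitters, and the cluster names used here follow the paper or marker genes. The pit, chief, parietal, ECL, D cell, X/A and endothelial lists were highest in the clusters of those names in dataset 2. The isthmus list of proliferation genes was high in isthmus clusters 3, 5, 6 and 9 (618 to 2068 CPM on average) but not in cluster 11 (183), which lay below the leukocytes (211) and not far above mature pit cells (139.8), and the neck list, led by *Tff2*, was highest in pre-pit cluster 4 and so did not set the neck clusters apart. Cluster 15 held tuft and stromal markers together and got no single name. Levels are given as CPM, the UMIs of a gene for each 1000000 UMIs summed over the cells of a cluster and pool, after edgeR's TMM scaling of that total, and fold changes between clusters as log2 with their standard error (SE). The test was edgeR's quasi-likelihood test on these sums, with p-values adjusted by Benjamini-Hochberg over all genes of the fit and called under 0.05. The SE was derived from this test, as the size of the log2 difference divided by the square root of its F statistic. Since these counts had also been used to define the clusters, p-values between clusters do not rest on independent data.

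Of the 8 listed ligands, 4 lie side by side on mouse chromosome 5: *Epgn*, *Ereg*, *Areg* and *Btc* span 376 kb (GRCm39, chr5:91175323-91550883), with *Btc* on the minus strand and the other 3 on the plus strand. *Tgfa* lies at chr6:86172041-86252728 (plus strand), *Egf* at chr3:129470410-129549093 (minus strand) and *Nrg4* at chr9:55121336-55234128 (minus strand). RefSeq promoters of build GRCm38.p6 were used for 6 ligands, with 2 start sites for *Egf*. *Hbegf* was left out of this promoter search. The 250 bases before the start are shown 5′ to 3′ for the 4 ligands whose levels set the epithelial cell types apart and whose promoter was at hand, *Areg* (chr5:91139349-91139598, plus strand), *Tgfa* (chr6:86194972-86195221, plus strand), *Btc* (chr5:91402995-91403244, minus strand) and the upstream start of *Egf* (chr3:129755323-129755572, minus strand). Capitals mark matches on either strand to 5 motifs searched, GGGCGG (GC box), TATAAA (the box named after it), TGANTCA (AP-1), TGACGTCA (CRE) and AAGGTCA (ERR half-site).
Areg: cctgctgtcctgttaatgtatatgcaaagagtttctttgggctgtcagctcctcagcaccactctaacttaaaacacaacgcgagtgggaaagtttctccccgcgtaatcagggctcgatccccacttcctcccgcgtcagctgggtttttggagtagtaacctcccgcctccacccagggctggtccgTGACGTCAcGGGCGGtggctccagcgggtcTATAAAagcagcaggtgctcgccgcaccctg
Tgfa: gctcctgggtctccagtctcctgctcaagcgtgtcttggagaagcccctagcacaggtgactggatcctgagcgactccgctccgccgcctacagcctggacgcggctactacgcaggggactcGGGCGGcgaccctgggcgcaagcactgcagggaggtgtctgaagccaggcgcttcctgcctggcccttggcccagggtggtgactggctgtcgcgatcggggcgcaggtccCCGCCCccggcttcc
Btc: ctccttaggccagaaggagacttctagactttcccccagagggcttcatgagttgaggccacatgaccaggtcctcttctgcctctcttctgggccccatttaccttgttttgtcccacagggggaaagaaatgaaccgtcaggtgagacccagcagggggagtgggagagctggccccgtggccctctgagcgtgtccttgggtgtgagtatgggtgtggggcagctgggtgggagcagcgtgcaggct
Egf: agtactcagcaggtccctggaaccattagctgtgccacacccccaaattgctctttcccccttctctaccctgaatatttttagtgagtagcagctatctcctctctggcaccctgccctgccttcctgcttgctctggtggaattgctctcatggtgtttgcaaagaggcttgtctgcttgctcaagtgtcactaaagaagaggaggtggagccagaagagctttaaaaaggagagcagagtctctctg

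*Areg* held a CRE starting 61 bases before the start, next to a GC box at 52 bases, and a TATA box at 31 bases. *Tgfa* held 2 GC boxes, at 126 bases and, on the opposite strand, at 15 bases before the start, and no TATA box. Neither *Btc* nor either start of *Egf* held any of the 5 motifs in this window. Among 32851 promoters of the same length, 1.55% held the CRE, 12.4% the TATA box, 32.7% the GC box, 6.75% the AP-1 motif and 4.08% the ERR half-site. These matches are a description of letters, and no binding was measured.

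In the corpus (dataset 2), 5 ligands carried nearly all of the family's UMIs. *Hbegf* had 6227 UMIs, *Btc* 3402, *Tgfa* 3237, *Areg* 1626 and *Egf* 987, whereas *Nrg4* had 45, *Epgn* 10 and *Ereg* 2. At least 1 UMI was found in 44.7% of the 3993 cells for *Tgfa*, 45.2% for *Btc* and 44.5% for *Hbegf*, but in only 12.7% for *Areg* and 9.82% for *Egf*. The 5 ligands followed 5 different orders over the clusters: *Tgfa* led in mature pit cells, *Btc* was spread over pit and isthmus cells, *Areg* led in mature pit cells and isthmus cluster 11, *Hbegf* led in endocrine cells and neck cluster 0, and *Egf* led in chief cells and parietal cluster 1.

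**Figure D1:**
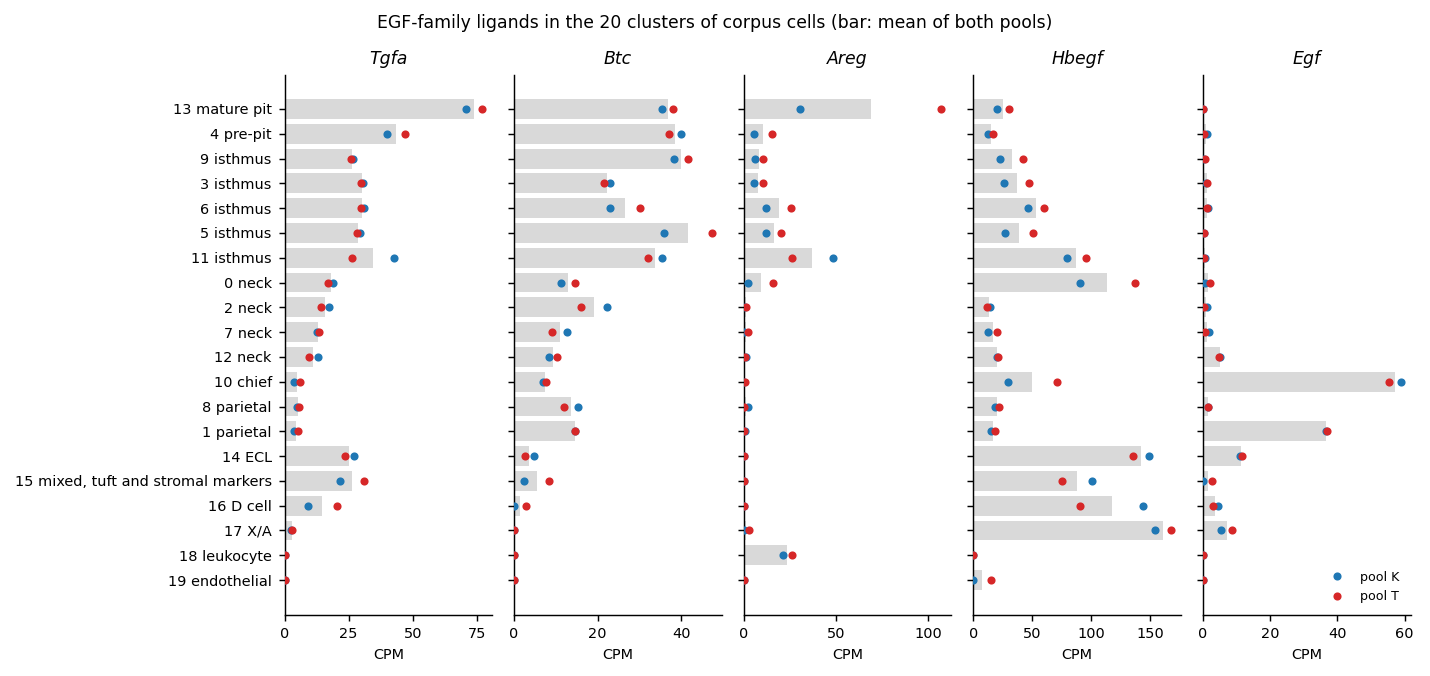
Level of 5 ligands (x axis, CPM) in the 20 clusters of corpus cells (y axis, the authors' cluster number with its name); points are pools K and T and the grey bar is their mean. *Tgfa* is highest in mature pit cells (70.5 and 77), *Hbegf* in X/A cells (154 and 168), and *Egf* in chief cells (58.8 and 55.4).

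*Tgfa*, which encodes TGF-alpha, stood at 70.5 CPM in pool K and 77 in pool T in cluster 13, the mature pit cells. Cluster 4, the pre-pit cells, had 39.9 and 46.9. These 2 clusters did not overlap in any pool. The 5 isthmus clusters lay between 26.0 and 42.7, the 4 neck clusters between 9.52 and 18.9, the 2 parietal clusters between 3.75 and 5.50, and chief cells had 3.79 and 6.01. Mature pit cells were thus above all other clusters in both pools, while neighbours further down (pre-pit and isthmus 11, isthmus 11 and 6, isthmus 6 and 3, and all steps among the neck clusters) overlapped between pools. A *Tgfa* UMI was found in 87.6% of mature pit cells (106 of 121, 95% Wilson interval 80.6 to 92.3%), in 69.1% of pre-pit cells and in 12.7% of the cells of parietal cluster 1. With each cell thinned to 10000 UMIs, which takes out differences in depth, these shares were 46.1%, 32.8% and 2.81%, so the order held.

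Against pre-pit cells, *Tgfa* rose in mature pit cells by 0.76 on the log2 scale (SE 0.15, adjusted p = 0.00107, edgeR), and against the mean of the 5 isthmus clusters it was higher in pre-pit cells by 0.55 (SE 0.11, adjusted p = 0.000523, edgeR). In the first of these comparisons 2 of 5 tested ligands were called, both higher (*Tgfa* and *Areg*), where 13.1% of all genes were called in either direction. In the other, 1 ligand was higher (*Tgfa*) and 1 lower (*Hbegf*), where 34.8% of all genes were called. The pre-pit difference was 0.34 in pool K alone and 0.74 in pool T alone. Pit against neck cells gave the largest *Tgfa* difference among the epithelial comparisons, 1.98 (SE 0.11, adjusted p = 1.02e-13, edgeR).

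*Btc* encodes betacellulin. Its 4 highest clusters were isthmus cluster 5 with 35.9 and 47.3 CPM (K and T), isthmus cluster 9 with 38.2 and 41.7, pre-pit cells with 39.9 and 37.1 and mature pit cells with 35.5 and 38.1. Neighbours in this order overlapped between pools. Unlike *Tgfa*, *Btc* showed no step between pre-pit and mature pit cells (log2 difference -0.06, SE 0.18, adjusted p = 0.891, edgeR), and between pre-pit and isthmus cells the difference of 0.26 was not called (SE 0.12, adjusted p = 0.0965, edgeR). Parietal cells, where *Tgfa* was near 5, kept *Btc* at 11.8 to 15.3, and 37.3% of the cells of parietal cluster 1 held a *Btc* UMI. Pit cells were above neck cells by 1.54 (SE 0.13, adjusted p = 1.94e-10, edgeR).

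*Areg*, which encodes amphiregulin, had 30.4 CPM in pool K and 107 in pool T in mature pit cells. Isthmus cluster 11 had 48.2 and 26.4, isthmus cluster 6 had 12.1 and 25.8, and isthmus cluster 5 had 12.2 and 20.4. The pools were thus far apart, and in mature pit cells 1 cell held 75 of the 322 UMIs (23.3%). Pre-pit cells had 5.63 and 15.6. Against pre-pit cells, *Areg* rose in mature pit cells by 2.69 (SE 0.56, adjusted p = 0.0018, edgeR), with 2.41 in pool K alone and 2.77 in pool T alone, although DESeq2 left it at an adjusted p of 0.0502. Against neck cells, with the clusters averaged on the log2 scale, *Areg* was higher in pit cells by 4.02 (SE 0.58, adjusted p = 1.86e-06, edgeR). Neck cluster 0 had a mean of 9.14 CPM beside 10.6 in pre-pit cells, and these 2 clusters overlapped between pools. Neck clusters 2, 7 and 12, chief cells and both parietal clusters stayed between 0 and 2.5, at 2 to 16 UMIs each.

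Pit against neck cells called 4 of 5 tested ligands, 3 higher (*Tgfa*, *Btc* and *Areg*) and 1 lower (*Egf*, with 7 UMIs in all pit cells), where 60.8% of all genes were called. The median log2 difference of the 5 ligands was 1.54, beside 0.00 over all genes. *Hbegf* was not called there (-0.44, SE 0.29, adjusted p = 0.196, edgeR), but it was called with the pool as a replicate block (-0.51, adjusted p = 0.00942, edgeR), which gave 5 called ligands. Of the other genes of the pathway, 3 of 3 tested receptors (*Egfr*, *Erbb2* and *Erbb3*) were higher in pit cells. Among 7 tested genes of ligand release, 5 were higher, led by *Rhbdl2*, a rhomboid protease, at 2.96 (SE 0.31, adjusted p = 1.07e-08, edgeR) and *Adam10* at 1.29 (SE 0.07, adjusted p = 8.84e-14, edgeR), and 1, *Bace1*, was lower at -0.46 (SE 0.12, adjusted p = 0.00161, edgeR).

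Within the isthmus, *Areg* and *Hbegf* had their highest level in cluster 11 in both pools, although in pool T its *Areg* (26.4) was close to that of cluster 6 (25.8). Cluster 11 held 15.2% of all *Areg* UMIs of the dataset and 10.2% of those of *Hbegf*, fewer than cluster 6 with 18.3% and 12.96%. Against the other 4 isthmus clusters *Hbegf* was higher there by 1.14 (SE 0.23, adjusted p = 6e-04, edgeR) and *Areg* by 1.58 (SE 0.42, adjusted p = 0.00602, edgeR), and these were the 2 of 5 tested ligands that were called, where 29.4% of all genes were called. The *Areg* difference was 2.53 in pool K alone and 0.76 in pool T alone, and DESeq2 did not call it (adjusted p = 0.104). All 3 tested receptors were higher in cluster 11. Of 7 tested genes of ligand release 2 were higher and 0 lower, *Rhbdf2* (0.92, SE 0.16) and *Rhbdf1* (0.57, SE 0.14), which encode inactive rhomboids that escort the protease ADAM17. *Adam17* itself was not called (-0.03, adjusted p = 0.838, edgeR). Clusters 5 and 6, the isthmus clusters with the highest levels of the proliferation markers, differed from the other 3 for 0 of 5 ligands (edgeR), and for 0 at an unadjusted p under 0.05, where 31.1% of all genes were called. DESeq2 called 0 there as well.

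*Hbegf*, which encodes HB-EGF, split the neck cells. Cluster 0 had 90.5 CPM in pool K and 137 in pool T. Neck clusters 2, 7 and 12 lay between 11.5 and 21.1 in both pools. A *Hbegf* UMI was found in 70.3% of the 471 cells of cluster 0 and in 18.8 to 23.6% of the cells of the other 3, and in 53.9% against 11.2 to 12.7% after thinning to 10000 UMIs. The difference was 2.85 (SE 0.26, adjusted p = 2.31e-08, edgeR). *Areg* was higher in cluster 0 as well, by 3.55 (SE 0.84, adjusted p = 0.00517, edgeR), but from 2.56 and 15.7 CPM against 0.24 to 2.12, with 1.84 in pool K alone and 3.64 in pool T alone. These were the 2 of 5 ligands called, where 13.4% of all genes were called, and *Tgfa*, *Btc* and *Egf* were not called. Of 7 tested genes of ligand release 2 were higher in cluster 0, *Rhbdf1* (0.86, SE 0.14) and *Rhbdf2* (0.62, SE 0.17), and 1 was lower, *Nrd1* (-0.28, SE 0.08), which encodes nardilysin. *Adam17* was not called (0.02, adjusted p = 0.976, edgeR), and 1 of 3 receptors, *Erbb3*, was higher.

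Pre-pit cells had the lowest *Hbegf* of the pit and isthmus clusters, 12.9 and 16.4 CPM, and were below the isthmus clusters by 1.67 on the log2 scale (SE 0.32, adjusted p = 0.000204, edgeR). Mature pit cells had 19.8 and 30.3. That step back up of 0.79 was not called (SE 0.48, adjusted p = 0.325, edgeR).

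*Hbegf* moved together with immediate-early genes, which cells switch on within minutes of a stimulus, tissue dissociation included. The summed level of 8 such genes (*Fos*, *Fosb*, *Jun*, *Junb*, *Egr1*, *Atf3*, *Ier2* and *Ier3*), a list chosen after the values were seen, was 12048 and 13516 CPM in neck cluster 0 and 577 to 1878 in the other neck clusters. Isthmus cluster 11 had 9126 and 7826, and the other isthmus clusters had 1833 to 5154. All 8 genes were listed. Over the 28 sums of 14 epithelial clusters and 2 pools, Pearson's r between the logged summed level and logged *Hbegf* was 0.91 (Spearman's rho 0.88), as a description of points that share clusters and pools. For *Areg* r was 0.29, for *Egf* 0.09, for *Btc* -0.01 and for *Tgfa* -0.05. The part of immediate-early induction in the *Hbegf* and *Areg* differences was not tested.

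**Figure D2:**
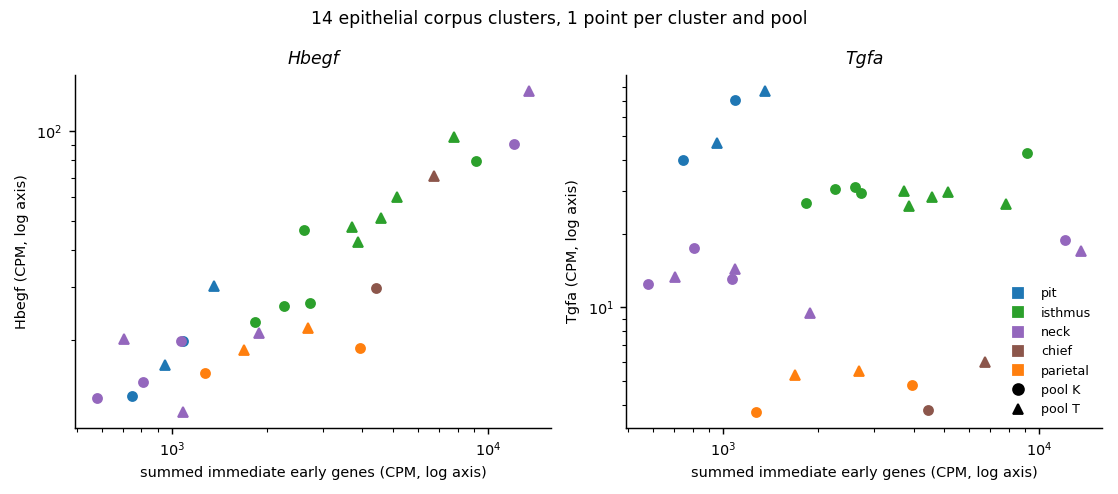
Level of *Hbegf* (left) and *Tgfa* (right, both y axes in CPM, log scale) against the summed level of 8 immediate-early genes (x axes, CPM, log scale), 1 point per epithelial corpus cluster and pool, coloured by cell type and shaped by pool. *Hbegf* rises along the axis (r = 0.91 over 28 sums), whereas *Tgfa* is high in pit cells at the low end of the axis (r = -0.05).

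Genes with the most similar levels over these 28 sums, among 10171 genes compared, were *Nr4a1* (r = 0.96), *Bbc3* (0.92) and *Ier2* (0.91) for *Hbegf*, and *Ifngr1* (0.98), *Ahnak* (0.98) and *Mogat1* (0.97) for *Tgfa*. For *Btc* they were *Gpx2* (0.96), *Snx1* (0.95) and *Tnfaip1* (0.95). For *Areg* they were *Arf6* (0.93), *Rasgef1b* (0.93) and *Plaur* (0.92). For *Egf* they were *Pgrmc2* (0.93), *Odr4* (0.90) and *Adk* (0.89). *Nr4a1* and *Ier2* are themselves immediate-early genes, and *Ier2* is a member of the list above.

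The pools of dataset 2, which came from different operators, differed for these ligands. In the epithelial cells kept on a plate, without TMM scaling, *Hbegf* ranged from 27.03 to 31.5 CPM over the 6 plates of pool K. Over the 6 plates of pool T it ranged from 42.6 to 73.3. *Areg* ranged from 3.99 to 9.98 and from 9.36 to 24.5. The plates of the pools did not overlap for *Hbegf* and nearly so for *Areg*. Pool T also held more cells of neck cluster 0 (336 against 135). For *Tgfa* (19.95 to 25.3 and 20.3 to 26.5) and *Egf* (6.07 to 8.85 and 4.59 to 7.76) the plates of both pools overlapped.

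*Egf* was nearly confined to 2 clusters. Chief cells (cluster 10), the pepsinogen-secreting cells of the gland base, had 58.8 and 55.4 CPM. Parietal cluster 1 had 36.6 and 36.9, and parietal cluster 8 had 1.43 and 1.5. The pools lay close together within each cluster, and the parietal clusters lay far apart. Together chief cells and parietal cluster 1 held 22.5% and 61.9% of the ligand's 987 UMIs. All other epithelial clusters lay at or below 5.21, with neck cluster 12 at 5.21 and 4.76 and mature pit cells at 0 of 121 cells (the floor of 3 UMIs is 0.68 CPM).

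Between the parietal clusters, *Egf* differed by 4.63 (SE 0.29, adjusted p = 1.36e-10, edgeR). It was the 1 ligand of 5 called, where 27.2% of all genes were called. In parietal cluster 1, 139 of 458 cells held an *Egf* UMI (30.3%, 26.3 to 34.7%), and 31 of them held 71.4% of its UMIs, with up to 54 in a cell. In chief cells 113 of 180 cells held one (62.8%, 55.5 to 69.5%), but the 6 cells with 5 or more UMIs held only 17.1% of the total. *Egf* was therefore carried by few cells with many UMIs in parietal cluster 1 and by most cells with few UMIs in chief cells. Cells of parietal cluster 1 with an *Egf* UMI had a median of 49035 UMIs and 21.7% mitochondrial UMIs, and those without had 44022 and 23.1%. The clusters themselves differed in mitochondrial share, with a median of 22.8% in cluster 1 and 12.6% in cluster 8, and with mitochondrial genes left out the difference in *Egf* was 4.62.

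Against neck cells, chief cells were higher for *Egf* (4.91, SE 0.22, adjusted p = 7.2e-15, edgeR) and *Hbegf* (1.00, SE 0.33, adjusted p = 0.0171, edgeR), and lower for *Tgfa* (-1.49, SE 0.29, adjusted p = 0.000196, edgeR) and *Btc* (-0.80, SE 0.28, adjusted p = 0.0233, edgeR). These 4 of 5 tested ligands stand beside 42.5% of all genes called, and the median log2 difference of the 5 was -0.80. Chief cells had 29.7 and 70.8 CPM of *Hbegf*, between neck cluster 0 and the other 3 neck clusters in both pools, and their immediate-early sum was 4428 and 6751. The *Hbegf* difference was 0.31 in pool K alone and 1.30 in pool T alone, and its adjusted p was 0.0526 without plate 5 of pool T. For *Btc* it was 0.0503 without plate 1 of pool T. All 3 tested receptors were lower in chief cells.

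**Figure D3:**
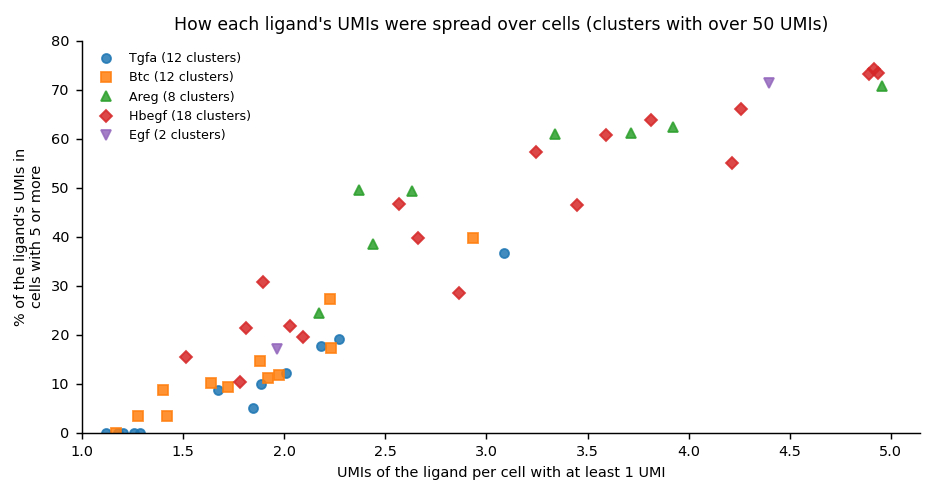
How the UMIs of each ligand were spread over the cells of a cluster, for the corpus clusters with over 50 UMIs of that ligand; the x axis gives the UMIs per cell that held any, and the y axis the percent of the UMIs held by cells with 5 or more. *Tgfa* and *Btc* stay at or below 39.7%, *Hbegf* in neck cluster 0 and *Egf* in parietal cluster 1 lie at 74.2% and 71.4%.

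The ligands thus differed in how they were spread over cells. In neck cluster 0, 133 of 471 cells held 74.2% of the *Hbegf* UMIs, with 4.92 per positive cell. In mature pit cells, *Areg* had 4.95 UMIs per positive cell, and 16 of 121 cells held 70.8% of them. *Tgfa* in the same cells had 3.08 per positive cell and 36.7% of its UMIs in cells with 5 or more. In the epithelial clusters *Btc* reached at most 2.93 per positive cell, in isthmus cluster 5, with 39.7%. *Areg* also had 2.29 UMIs per positive cell at its low level in parietal cluster 8 (16 UMIs), where *Egf* with 17 UMIs had 1.13.

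Among the rare clusters of the corpus, endocrine cells had the highest *Hbegf*. X/A cells (cluster 17), which make ghrelin, had 154 and 168 CPM, ECL cells (cluster 14), the histamine cells, 149 and 135, and D cells (cluster 16), which make somatostatin, 144 and 90.7. Cluster 15 with tuft and stromal markers had 101 and 75.5. Apart from X/A cells, which stood above ECL cells in both pools, neighbours in this order overlapped, neck cluster 0 included. The immediate-early sum was 16684 and 17891 in X/A cells, 11183 and 12922 in D cells and 6507 and 9536 in ECL cells, and its part in these levels was not tested. Against the mean of the 14 epithelial clusters, *Hbegf* was higher by 2.37 in X/A cells (SE 0.36, adjusted p = 8.9e-07, edgeR), by 2.19 in ECL cells (SE 0.28, adjusted p = 2.62e-08, edgeR), by 1.86 in D cells (SE 0.45, adjusted p = 0.00103, edgeR) and by 1.52 in cluster 15 (SE 0.42, adjusted p = 0.00504, edgeR).

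The other ligands of endocrine cells ran differently. ECL cells kept *Tgfa* at 26.9 and 23.4 CPM, close to isthmus cells, whereas X/A cells had 2 UMIs in 29 cells. The epithelial level was 8.22-fold that of X/A cells (exact counting interval 2.27 to 67.9). *Btc* had 5 UMIs in ECL cells, 1 UMI in D cells and 0 in X/A cells, where the epithelium was at least 5.86-fold higher against a floor of 3 UMIs. *Egf* stood at 11.1 and 11.7 in ECL cells and at 5.40 and 8.68 in X/A cells (5 UMIs). Against the 14 epithelial clusters averaged on the log2 scale, ECL cells were higher by 2.96 (SE 0.48, adjusted p = 2.62e-06, edgeR). X/A cells were higher by 2.26 (SE 0.75, adjusted p = 0.0153, edgeR), and without plate 1 of pool T their adjusted p was 0.12. This average is pulled down by clusters near 0, mature pit cells at 0 included. Chief cells (mean 57.1 CPM) and parietal cluster 1 (36.8) had more *Egf* than ECL or X/A cells. *Areg* had 1 UMI over the 145 cells of clusters 14 to 17, so that the epithelium was 40.5-fold higher with an exact counting interval of 7.26 to 1601.

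Of 6 ligands tested in each rare cluster, 2 were higher and 1 lower in ECL cells (46.4% of all genes called), 2 higher and 1 lower in cluster 15 (27.9%), 1 higher and 1 lower in D cells (36.7%) and 2 higher and 2 lower in X/A cells (39.6%). The 2 higher in cluster 15 were *Hbegf* and *Nrg4*, and *Nrg4* passed the count filter through its level in that cluster. DESeq2 called 5 in place of 3 ligands in ECL cells and 1 in place of 2 in D cells, and edgeR with no filter on low counts called 5 in place of 3 in cluster 15. Leukocytes (cluster 18, 13 cells) and endothelial cells (cluster 19, 9 cells) had no *Tgfa*, *Btc* or *Egf* UMI. There edgeR called 0 of 6 ligands, where 20.4% and 16.9% of all genes were called, and 2 (*Tgfa* and *Btc*) had an unadjusted p under 0.05 in each. DESeq2 called 1 in leukocytes and 0 in endothelial cells. Over both clusters the epithelium was at least 2.23-fold higher for *Tgfa* and 2.39-fold higher for *Btc*, so that these few cells set only a weak limit. The 4 *Areg* UMIs of the leukocytes came from 2 of 13 cells, 21.2 and 26.0 CPM, and their ratio to the epithelium, 1.99, has an interval of 0.54 to 5.10. The median log2 difference of all genes was between -0.13 and -0.22 in clusters 14 to 17, but -1.01 in leukocytes and -1.46 in endothelial cells.

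Which ligands share a cell was asked in the 3826 epithelial corpus cells. *Tgfa* and *Btc* were found together in 1027 cells (26.8%), *Tgfa* and *Hbegf* in 865, *Btc* and *Hbegf* in 855, *Tgfa* and *Areg* in 362, and *Areg* and *Hbegf* in 331. The number expected if the ligands were independent within each cluster and pool was 983 for *Tgfa* and *Btc*, a ratio of 1.05 (1.04 in pool K, 1.05 in pool T). Deep cells show more of every gene, and within tertiles of depth the ratio was 1.02. For *Tgfa* and *Hbegf* the ratio was 1.04 and within tertiles 1.01. For *Btc* and *Hbegf* it was 1.02, and it turned below 1 within tertiles (0.99) and after thinning (0.98). With at least 2 UMIs of each ligand required, the ratios rose to 1.23, 1.15 and 1.06 for these 3 pairs, so that they depend on the count that is asked for.

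With all UMIs counted, the pair furthest from 1 was *Areg* and *Hbegf*. It was found in 331 cells where 280.0 were expected, a ratio of 1.18 (1.24 in pool K and 1.16 in pool T). The ratio was 1.15 within tertiles of depth and 1.29 after thinning. By cell type it was 1.26 in neck cells, 1.17 in isthmus cells and 1.10 in pit cells, and it was 1.02 in mature pit cells alone (30 of 121 cells). *Tgfa* and *Egf*, in 82 cells, stood at 0.98 (1.07 in pool K and 0.92 in pool T), at 0.94 within tertiles and at 0.79 after thinning. *Areg* and *Egf*, in only 17 cells, stood at 0.90 and within tertiles at 0.82, there further from 1 than *Areg* and *Hbegf*. These ratios are a description over cells, which are not replicates, and no test was made of them.

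**Figure D4:**
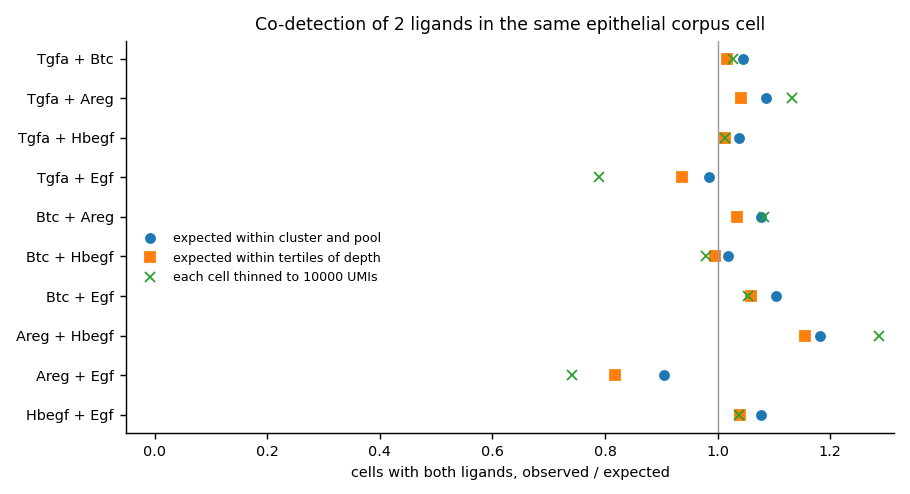
Number of epithelial corpus cells with both ligands of a pair, divided by the number expected from the shares within each cluster and pool (x axis, from 0); circles use all UMIs, squares also split each cluster into tertiles of depth, and crosses thin each cell to 10000 UMIs. *Areg* with *Hbegf* lies at 1.18, 1.15 and 1.29, and *Btc* with *Hbegf* lies on both sides of 1.

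Counting the 5 main ligands per cell, 2 or more were found in 86.7% of the cells of isthmus cluster 5, 86.0% of mature pit cells and 81.6% of isthmus cluster 11, but in 12.1% of neck cluster 12. At a common depth of 10000 UMIs isthmus cluster 11 led with 39.8%, before mature pit cells with 33.7% and isthmus cluster 5 with 27.98%, and parietal cluster 8 was lowest with 2.78%. Isthmus cluster 5 led without thinning at a median of 50083 UMIs per cell, the second deepest of the epithelial clusters, after parietal cluster 8 with 51291.

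Dataset 1 held pit cells of both regions, so that the ligands could be compared between antrum and corpus. Clusters 8 and 2 were corpus mature pit (26 cells) and pre-pit (46 cells), and clusters 1 and 6 were antrum mature pit (49 cells) and pre-pit (32 cells). The antral pit markers *Krt7* and *Krt20* summed to 1856 and 380 CPM in clusters 1 and 6 against 107 and 18.3 in clusters 8 and 2, and the corpus pit markers *Basp1* and *Sctr* to 477 and 371 in clusters 8 and 2 against 72.9 and 19.1. The paper identified these markers in this same dataset, so their sums describe the clusters and do not test the regional names. Antrum pre-pit cluster 6 also held markers of another cell type. The list of goblet or deep antral gland cells (*Muc2*, *Spdef* and *Lgr5*), led there by *Muc2*, summed to 317 and 1729 CPM in tubes 1 and 2, against 33.3 and 19.8 in corpus pre-pit cluster 2, with 2 of its 3 genes detected in either cluster. Its part in the pre-pit differences given here was not tested. Both regions came from the same pools of cells.

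*Areg* and *Hbegf* were higher in antral pit cells, and *Tgfa* was not called. *Areg* had 157 and 143 CPM (tube 1 and tube 2) in antrum mature pit cells and 89.7 and 79.8 in corpus mature pit cells. In pre-pit cells it had 53.2 and 16.3 in the antrum and 13.5 and 15.2 in the corpus. All 4 antral values were above their corpus partner of the same stage in both tubes. Over both stages the difference was 1.12 (SE 0.26, adjusted p = 0.00762, edgeR), with 0.47 in tube 2 alone, and its adjusted p was 0.0827 without plate 2 of tube 1 and 0.0523 without plate 1 of tube 2. A UMI was found in 48 of 49 antrum mature pit cells (98.0%, 89.3 to 99.6%) and in 19 of 26 corpus ones (73.1%, 53.9 to 86.3%).

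*Hbegf* had 60.3 and 59.7 CPM in antrum mature pit cells and 36.4 and 7.12 in corpus mature pit cells. Antrum pre-pit cells had 37.2 and 20.4, and corpus pre-pit cells 15.6 and 9.34. The antral cells were again higher at both stages in both tubes. The difference over both stages was 1.31 (SE 0.39, adjusted p = 0.0387, edgeR), with 2.04 in tube 2 alone, and its adjusted p rose to 0.132 without plate 1 of tube 1, to 0.0676 and 0.0675 without plates 2 and 3 of tube 2, and to 0.0526 with cells of at least 4000 detected genes. The immediate-early sum was 988 and 723 in antrum mature pit cells and 791 and 360.3 in corpus mature pit cells, and its part was not tested.

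*Tgfa* stood at 112 and 106 CPM in antrum mature pit cells and 116 and 108 in corpus mature pit cells. Pre-pit cells had 55.9 and 61.2 in the antrum and 57.4 and 71.2 in the corpus. The difference over both stages was -0.08 (SE 0.13, adjusted p = 0.834, edgeR), and it was not called. *Btc* had 62.1 and 62.6 in antrum mature pit cells against 28.6 and 21.4 in the corpus, but 21.3 and 51.0 against 34.7 and 37.4 in pre-pit cells. Its difference was 1.31 in mature pit cells (SE 0.29, adjusted p = 0.0129, edgeR) and 0.61 over both stages (SE 0.22, adjusted p = 0.105, edgeR). In mature pit cells DESeq2 did not call *Btc* (adjusted p = 0.119), nor did the edgeR fit of all 15 clusters (0.0572) or the fits without plate 1 of tube 1 (0.0674) or plate 1 of tube 2 (0.0649).

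**Figure D5:**
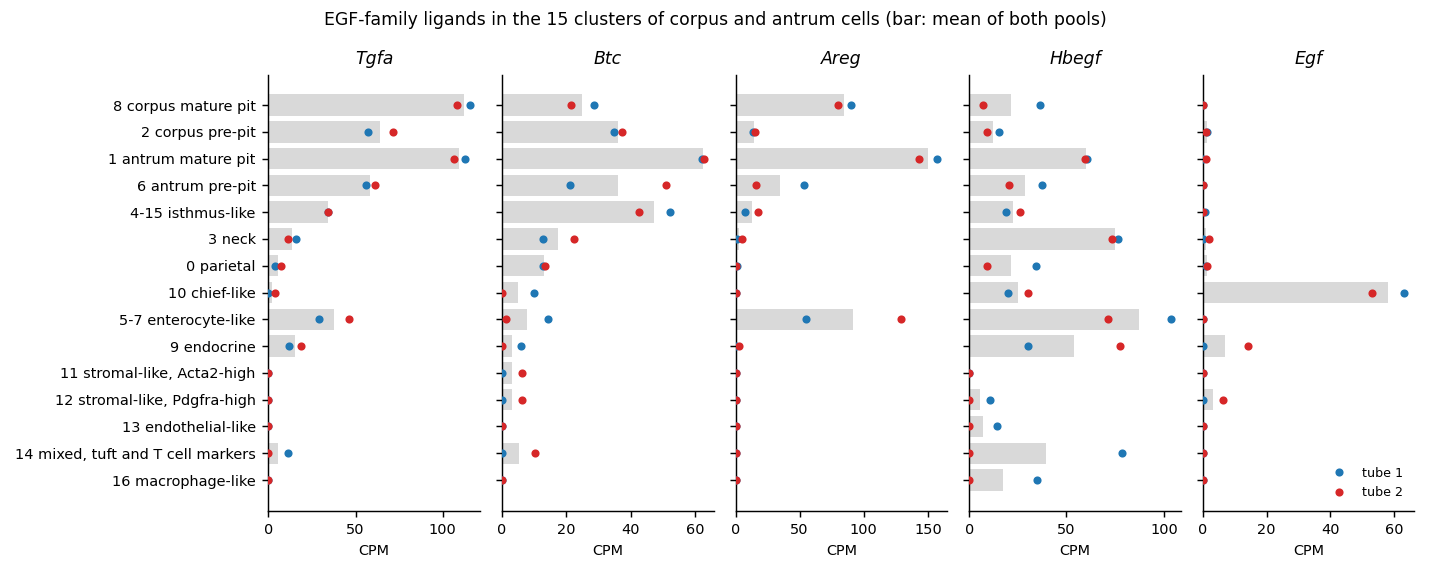
Level of 5 ligands (x axis, CPM) in the 15 clusters of corpus and antrum cells (y axis, the authors' cluster number with its name); points are tubes 1 and 2 and the grey bar is their mean. *Tgfa* lies at 116 and 108 in corpus and at 112 and 106 in antrum mature pit cells, and *Areg* is higher in the antrum (157 and 143 against 89.7 and 79.8).

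Over both stages 2 of 4 tested ligands were called, both higher in the antrum, where 9.24% of all genes were called, and their median was 0.86 beside 0.01 over all genes. In mature pit cells 1 of 4 was called (*Btc*), where 4.29% of all genes were called, with *Areg* at 0.83 (adjusted p = 0.082, edgeR) and *Hbegf* at 1.42 (adjusted p = 0.113, edgeR). In pre-pit cells 0 of 4 were called by edgeR and 0 by DESeq2, where 5.07% of all genes were called, and 1 ligand had an unadjusted p under 0.05. That ligand was *Areg*, with a difference of 1.42 (SE 0.45, adjusted p = 0.0796, edgeR). None of the 3 tested receptors and 7 tested genes of ligand release was called between antral and corpus pit cells in these 3 comparisons.

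From pre-pit to mature pit cells, *Tgfa* and *Areg* rose in both regions. *Tgfa* rose by 0.92 in the antrum (SE 0.18, adjusted p = 0.0025, edgeR) and by 0.82 in the corpus (SE 0.17, adjusted p = 0.00352, edgeR; 0.0647 by DESeq2). *Areg* rose by 1.99 (SE 0.31, adjusted p = 0.000283, edgeR) and by 2.58 (SE 0.37, adjusted p = 0.000187, edgeR). *Btc* rose by 0.89 in the antrum (SE 0.29, adjusted p = 0.047, edgeR), and in the corpus its difference was -0.51 (SE 0.33, adjusted p = 0.337, edgeR). The rise of *Btc* in the antrum was 1.53 in tube 1 alone and 0.30 in tube 2 alone, and 7 of the alternative fits ended the call, with adjusted p up to 0.298. Of 4 tested ligands, 3 were called in the antrum (14.0% of all genes called) and 2 in the corpus (12.9%).

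The stage difference itself was compared between the regions by an interaction term. No ligand passed (edgeR 0 of 4, DESeq2 0 of 4), where 0.0293% of all genes were called, and 1 ligand had an unadjusted p under 0.05. That ligand was *Btc*, whose rise was larger in the antrum by 1.40 (SE 0.44, adjusted p = 0.516, edgeR). For *Tgfa* the interaction was 0.09 (SE 0.26) and for *Areg* -0.59 (SE 0.51).

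Outside the pit clusters of dataset 1, the enterocyte-like cluster 5-7 (70 cells), which was highest for the enterocyte markers and also carried *Krt7* and *Krt20*, had *Areg* at 54.7 and 129 CPM and *Hbegf* at 104 and 71.4. A single cell held 32.3% of its 133 *Areg* UMIs. Neck cluster 3 had *Hbegf* at 76.4 and 73.2, with an immediate-early sum of 4828 and 4773. Chief-like cluster 10 had *Egf* at 63.2 and 52.9, near its level in the corpus dataset, but the single parietal cluster of dataset 1 had 4 *Egf* UMIs in 57 cells, 0.97 and 1.42 CPM. That is the level of parietal cluster 8 of the corpus dataset and not of cluster 1. The datasets were scaled separately, so levels set across them were not tested.

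The 3 sparse ligands had few UMIs each. *Ereg*, which encodes epiregulin, was found almost only in the *Pdgfra*-high stromal-like cluster 12 of dataset 1, where 37 of its 44 UMIs (84.1%) lay in 8 of 15 cells. The tubes differed widely, with 32 UMIs (347 CPM) in tube 1 and 5 UMIs (30.97 CPM) in tube 2. The 8 gastric epithelial clusters of dataset 1, the enterocyte-like cluster 5-7 not among them, held 0 *Ereg* UMIs. Against a floor of 3 UMIs over these 8, cluster 12 was at least 809-fold higher, with a lower exact counting limit of 626 for the same ratio. The enterocyte-like cluster 5-7 held 9.09% of the *Ereg* UMIs of dataset 1, at a mean of 2.27 CPM, and is not covered by this bound. Most of these UMIs came from tube 1. The *Acta2*-high stromal-like cluster 11 had 3 UMIs, a ratio of 12.1 with an exact counting interval of 3.83 to 61.3. In the corpus dataset the 2 *Ereg* UMIs lay in 1 cell of cluster 15, the cluster with stromal markers.

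*Nrg4*, which encodes a neuregulin that binds ERBB4, had 5 of its 45 corpus UMIs in 5 of the 32 cells of cluster 15 (2.4 and 11.2 CPM), a ratio of 22.9 to the epithelium (exact counting interval 7.04 to 58.1). It was called there by edgeR (adjusted p = 0.00423), but not without plate 1 of pool T (0.132) or with cells of at least 4000 detected genes (0.145). *Nrg4* did not pass the count filter among the epithelial corpus clusters. It passed only with the rare clusters added, of which cluster 15 had its highest level. The call therefore gives no independent support for a higher level there. In dataset 1, 12 of 22 UMIs lay in the enterocyte-like cluster, all in tube 2, and the ratio to the epithelium was 20.3 (7.64 to 57.3). *Epgn*, which encodes epigen, had 10 UMIs in the corpus dataset, each in a different cell and cluster, and 2 in dataset 1, and was too sparse at this depth to be placed in any cluster.

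Ligand UMIs were also counted in wells with few genes. For dataset 1 the paper proposes cellular debris as a possible source of its many low-quality cells. Such wells therefore need not measure background in the kept cells, and this was not tested. In the corpus dataset, 420 wells with under 500 detected genes held 619179 UMIs and 10 of *Hbegf* (16.2 CPM, without TMM scaling, against 44.6 in the kept cells), 3 of *Areg*, 2 of *Egf* and 1 each of *Tgfa* and *Btc*, none of the last 4 above the floor of 4.85 CPM. In dataset 1, 1645 such wells held 2288440 UMIs, with *Tgfa* at 3.06 CPM (7 UMIs) against 44.9 in the wells of kept size. *Btc* in leukocytes, endothelial cells and X/A cells, and *Tgfa* in leukocytes and endothelial cells, were at 0 of 13, 9 and 29 cells, which by the floor of 3 counts allows shares of up to 23.1%, 33.3% and 10.3% of cells with a UMI, for counting error only.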

How the data were processed

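Cells of 2 datasets of mouse gastric units were measured by Quartz-Seq2 on plates of 384 wells. The authors turned the reads into the deposited counts of UMIs per gene and cell by alignment with STAR to the mouse genome GRCm39, a Gencode annotation, and counting with Drop-seq tools, after bcl2fastq 2.20.0.422 per the submitters' processing notes, and no normalization was applied to them. They kept cells with at least 2500 detected genes, and clustered them with Seurat within each dataset. The deposited annotation gives their clusters and, as computed by the authors, the percent of mitochondrial UMIs of each cell. The deposited tables of single plates, in the same unit of UMI counts, were used only for the wells with few genes.

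Counts were summed per cluster and pool, and genes passing edgeR's filterByExpr were scaled by TMM and tested by the quasi-likelihood test with no replicate block. CPM used the total over genes that passed this filter. Clusters outside the epithelial fits, the chief-like cluster of dataset 1 included, took their factors from TMM over all clusters, put on the epithelial scale. The fits held 14 sums and 10229 genes (dataset 1), 28 sums and 12922 genes (epithelial corpus clusters) and 40 sums and 15295 genes (all corpus clusters), with 7, 14 and 20 residual degrees of freedom. Each pool joined 3 mice, so p-values measure the spread between pools and cannot be read as the spread between animals. In dataset 2 the plates could be tied to a pool but not to a single labelled sample. Every cluster of a dataset was sampled from the same pools of mice, so the pool pairs the clusters by design. Deviations of clusters of the same pool correlated with a median r of 0.0263 in dataset 1, and of 0.125 and 0.0508 in the 2 corpus fits, where 67 of 91 and 71 of 190 pairs of clusters were over 0.1. Intervals of shares above 0 are 95% Wilson intervals, the limit for a share of 0 is a floor of 3 counts, those of ratios with few UMIs are exact counting intervals, and both cover counting error only.

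The members and gene lists were chosen with earlier results of these data known. All 9 ligands are named by rule, the other pathway genes are counted with up to 4 named per list, and for each ligand with at least 200 UMIs the 3 genes with the most similar pattern are named, among genes with a mean of at least 5 CPM and as the correlation of log2(CPM + 1). Alternatives were DESeq2 with its size factors, edgeR with those size factors, no filter on low counts, the pool as a replicate block, the plate as the unit, mitochondrial genes left out, cells with at least 4000 detected genes, a fit of all clusters, each pool alone and each plate left out in turn. Doublets were treated as in the authors' kept cells. Versions were R 4.3.3, edgeR 4.0.16, limma 3.58.1, DESeq2 1.42.0, Python 3.11.15, pandas 2.3.3, NumPy 2.4.6, SciPy 1.17.1 and matplotlib 3.10.9.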

Additional observations from a re-analysis of the deposited data

Results flagged for a closer look

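*Btc* stood apart on 1 plate. Over the 6 plates of pool T its level in the kept epithelial cells had a median of 26.081 CPM without TMM scaling and a lowest value of 24.557. On 1 plate it lay at 29.339, where the gap to its nearest neighbour was 0.656 of the whole range, above Dixon's 95% critical value. The plates of 5 ligands in 2 pools were looked at, 10 groups in all, and chance alone gives such a gap in about 1 of 20 groups.

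The rise of *Btc* from pre-pit to mature pit cells was larger in the antrum than in the corpus by 1.403 on the log2 scale (SE 0.436, adjusted p = 0.516, edgeR). It was picked out since *Btc* was higher in mature than in pre-pit cells in both tubes in the antrum, and lower in both tubes in the corpus. The interaction did not pass the adjustment. In the separate corpus dataset the same step of *Btc* was -0.059 (SE 0.177, adjusted p = 0.891, edgeR). Antrum pre-pit cells also held markers of goblet or deep antral gland cells, whose part was not tested.

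Wells with under 500 detected genes held UMIs of 2 ligands above the level that a count of 3 sets. In dataset 1 these were 7 UMIs of *Tgfa* (3.06 CPM, beside 44.9 in wells with the gene number of kept cells) and 5 UMIs of *Hbegf* (2.18 beside 34.6), where 3 UMIs would be 1.31 CPM. In dataset 2 they were 10 UMIs of *Hbegf* (16.2 beside 44.6), where 3 UMIs would be 4.85 CPM.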

How the results depend on the processing

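Between clusters, 37 pairs of a ligand and a comparison were called over 20 comparisons. Of their 677 alternative tests 649 were still called, and none of their 751 alternative values changed sign. Of 358 alternative counts of called ligands 328 lay within 1.5 times the count in the text.

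DESeq2 called 0 ligands in place of 1 between antrum and corpus mature pit cells, 1 in place of 2 between mature pit and pre-pit cells in the corpus of either dataset, in isthmus cluster 11 and in D cells, 5 in place of 3 in ECL cells and 1 in place of 0 in leukocytes. With no filter on low counts the number was 3 in place of 1 between antrum and corpus mature pit cells, 1 in place of 0 in the pre-pit comparison, in isthmus clusters 5 and 6 and in leukocytes, and 5 in place of 3 in cluster 15. With the plate as the unit it was 2 in place of 1 between antrum and corpus mature pit cells, and 2 in place of 0 in leukocytes and in endothelial cells. Cells with at least 4000 detected genes gave 1 in place of 2 between antrum and corpus pit cells over both stages, the fit of all clusters gave 0 in place of 1 for mature pit cells, and leaving out mitochondrial genes gave 1 in place of 0 in leukocytes. Leaving out a plate in turn gave 1 to 3 ligands between antrum and corpus pit cells over both stages, 0 to 2 in mature pit cells, and 0 to 1 in pre-pit cells and in leukocytes. The cause of these shifts was not tested.

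The ratio of cells with both ligands to the number expected moved from 1.0453 for *Tgfa* and *Btc* to 1.0271 after thinning, to 1.0155 within tertiles of depth and to 1.2343 with at least 2 UMIs of each, where *Tgfa* with *Hbegf* moved from 1.0377 to 1.1469. *Btc* with *Hbegf* turned from 1.019 to 0.9783 after thinning and to 0.9944 within tertiles, and was 1.0563 with at least 2 UMIs of each. Leaving out a plate in turn kept these 3 ratios at 1.0379 to 1.053, 1.032 to 1.0446 and 1.0144 to 1.0228.

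With the pool as a replicate block all 37 pairs were called. It also called *Hbegf* between pit and neck cells (-0.511, adjusted p = 0.00942, edgeR), and raised the count over all genes of the interaction from 3 to 12. It changed no other call among the ligands.

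The following counts over all genes moved by over 1.5 times. Between antrum and corpus, DESeq2 called 548 in place of 945 over both stages, 205 in place of 439 in mature pit cells and 285 in place of 519 in pre-pit cells. From pre-pit to mature it called 684 in place of 1427 in the antrum and 665 in place of 1323 in the corpus, and 11 in place of 3 for the interaction. The fit of all clusters called 267, 903 and 771 in place of 439, 1427 and 1323. No filter gave 784 in place of 519 in pre-pit cells and 97 in place of 3 for the interaction. The plate as the unit gave 2759 in place of 1730 in neck cluster 0, 4847 in place of 3120 in leukocytes and 5030 in place of 2588 in endothelial cells, where cells with at least 4000 genes gave 1086 and 640. Without plate 1 or 3 of tube 1 or plate 1 of tube 2, mature pit cells gave 256 to 279. Pre-pit cells gave 330 without plate 1 of tube 1 and 302 without plate 1 of tube 2. The corpus stage comparison gave 812 and 791 without plates 1 and 3 of tube 1, both stages together gave 627 without plate 1 of tube 2, and the interaction gave 0 to 7.

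With 2 pools of 3 mice per dataset and 9 to 53 cells in each rare corpus cluster, low counts limit what can be said of *Nrg4*, *Epgn* and *Ereg* and of every ligand in leukocytes and endothelial cells.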
